A study of Rattus norvegicus with 39 samples.

Results

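Rats that were calorie restricted until 12 months of age and then fed ad libitum with α-lipoic acid until 28 months (CR>AL+LA) were compared with rats of the same age that had been fed ad libitum without the supplement throughout (AL). The comparison took the 3 libraries labelled with each diet, 6 of the 39 libraries of the series. All animals were male BN rats (substrain BN/SsNOlaHSD), fed ad libitum until 2 months of age and then housed singly. Restricted rats received 55% of the food that control rats ate, and the supplemented feed held 1.5 g of racemic α-lipoic acid (LA) per kg. A library is RNA from the cerebral cortex of 2 rats pooled before ribosomal RNA was depleted, so a replicate is a pool, and the spread between 3 pools does not show how single rats vary. Pools 7, 8 and 9 are the AL pools and pools 28, 29 and 30 the CR>AL+LA pools, and values are given in that order. The same CR>AL+LA pools were also set against 3 other diets at 28 months, restriction followed by plain ad libitum feeding (CR>AL), ad libitum feeding with LA throughout (AL+LA) and restriction throughout (CR), with 3 pools each. CR rats had restricted food to the end, and CR>AL rats shared the restricted phase with CR>AL+LA rats but never received LA.

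Calorie restriction lowers energy intake without malnutrition and extends life in rodents. Lipoic acid is a cofactor that is bound to mitochondrial enzyme complexes such as pyruvate dehydrogenase, and its reduced form acts as an antioxidant. The study took the CR>AL+LA diet as its case of a dietary memory effect, a benefit of restriction that outlasts the return to full feeding. The question addressed here is which transcripts of the aged cortex differed between these rats and rats never restricted, and which differed from each diet that shares 1 phase with theirs. The cortex holds excitatory and inhibitory neurons, astrocytes, oligodendrocytes, microglia and vessels, and in bulk tissue fewer cells of a type and less RNA per cell cannot be told apart.

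Reads on genes numbered 4537079, 3109488 and 3753929 in the AL pools and 3854965, 4250747 and 2754552 in the CR>AL+LA pools. The labels say cortex, and the cortical marker Nrgn was found in all 6 libraries. AL pools 7 and 9 stood apart from the other 4 libraries in markers of cerebellar granule and Purkinje cells, whose summed level over 8 named markers was 1447, 88.7 and 1397 CPM (read counts scaled for library size) in the AL pools and 176, 85.04 and 78.9 CPM in the CR>AL+LA pools. Gabra6 (ENSRNOG00000003569), a GABA receptor subunit of cerebellar granule cells, was at 592, 0.29 and 531 CPM in the AL pools and 28.5, 0.992 and 0 CPM in the CR>AL+LA pools. In these 8 markers 7 were called lower in CR>AL+LA and 0 of them with pools 7 and 9 left out. The AL and CR>AL+LA pools also differed in 2 measures of the libraries. Reads not aligned made up 33.2%, 32.97% and 27.5% of all reads in the AL pools and 39.6%, 37.99% and 41.2% in the CR>AL+LA pools, without overlap. The 28S ribosomal RNA gene Rn28s (ENSRNOG00000050614) took 0.604%, 0.674% and 0.337% of the reads on genes in the AL pools and 3.15%, 3.04% and 3.16% in the CR>AL+LA pools. These measures separate the AL pools from the CR>AL+LA pools as the diets do, so the diets and these measures cannot be told apart within the 6 libraries.

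**Figure D1:**
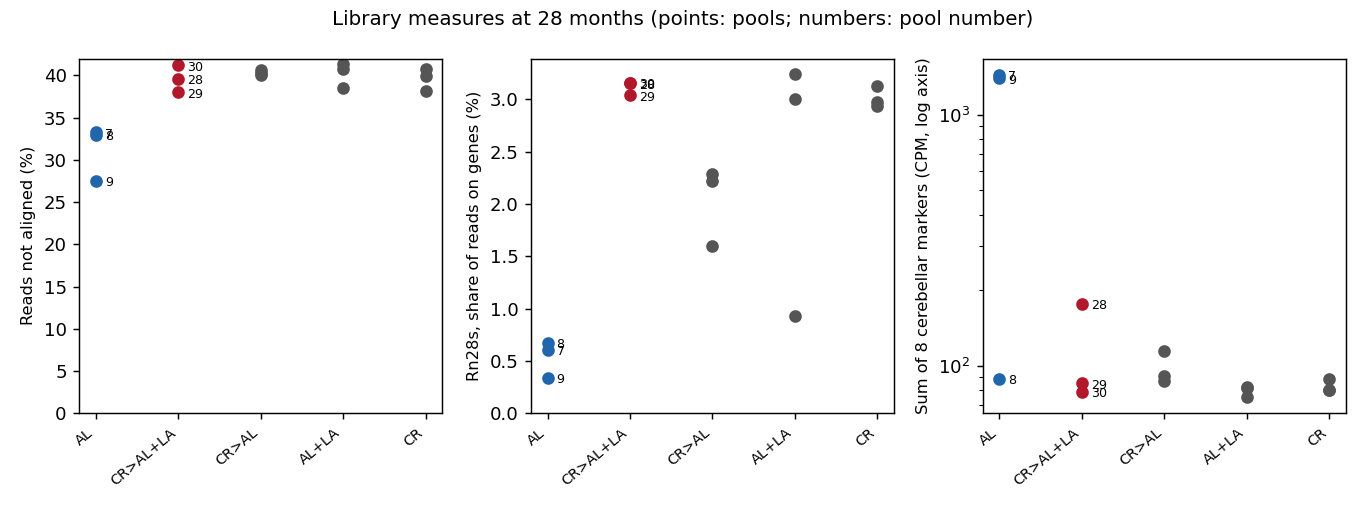
Library measures for each pool of the 5 diets at 28 months: reads not aligned (percent of all reads, left), the share of reads on genes taken by Rn28s (percent, middle) and the summed CPM of 8 cerebellar markers (log axis, right). Each point is a pool, and numbers name the pools of AL (blue) and CR>AL+LA (red). The AL pools lie lowest in the left and middle panels, and AL pools 7 and 9 stand at 1447 and 1397 CPM in the right panel.

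Of 17230 genes tested, 1003 (5.82%) were differentially expressed (DE) at an adjusted p under 0.05, 593 (3.44%) of them higher and 410 (2.38%) lower in CR>AL+LA. The median log2 fold change of all genes was −0.01, and the median size of the change was 0.84 on the log2 scale in DE genes and 0.29 in all genes. The pools of the 2 diets did not overlap in 926 of the DE genes (5.37% of all genes tested), and in 4138 (24%) of all genes tested. The count of DE genes changed when a pool was left out, which also leaves fewer replicates. It was 874 without AL pool 7, 1667 without AL pool 8 (which leaves AL pools 7 and 9), 533 without AL pool 9, 655 without CR>AL+LA pool 28, 484 without pool 29 and 477 without pool 30. With AL pools 7 and 9 both left out, which sets AL pool 8 alone against the 3 CR>AL+LA pools and assumes that it varies like them, 506 genes were higher and 414 lower, and 494 of these 920 genes were among the 1003. Names were at hand for 1669 of the genes tested, 781 of them DE (46.8%). The names come from the study's tables of DE genes and so favour genes that differed in these libraries. A list of named genes has to be read against that 46.8% (26.5% higher and 20.3% lower), not against 5.82%.

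**Figure D2:**
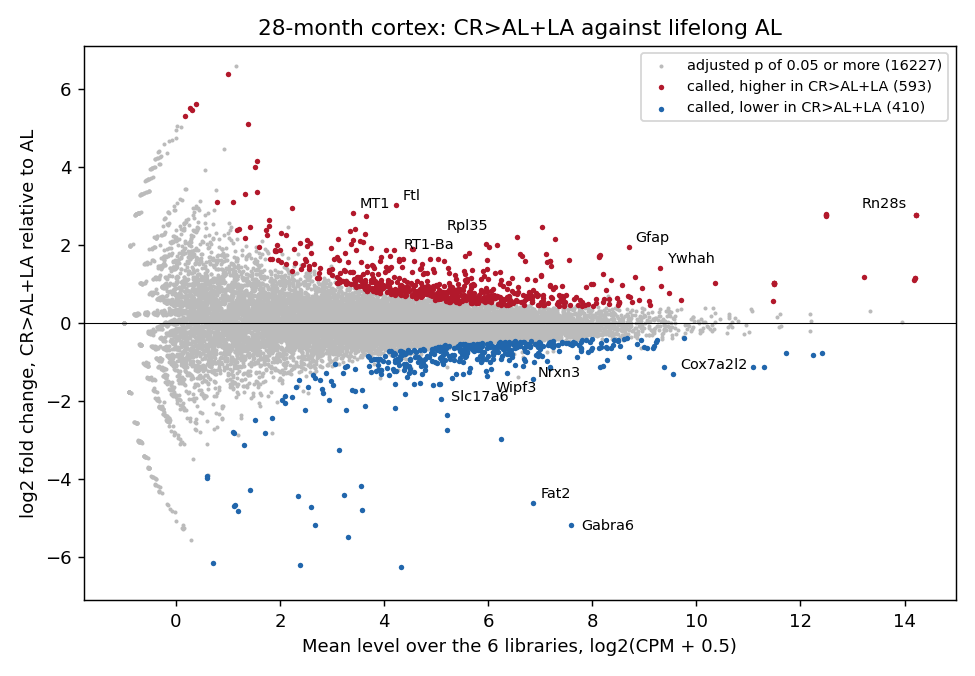
Each point is 1 of 17230 genes, with the mean level over the 6 libraries on the x axis (log2 of CPM + 0.5) and the log2 fold change of CR>AL+LA relative to AL on the y axis. The 593 genes called higher (red) and 410 called lower (blue) lie on both sides of 0 from low to high levels, with Rn28s at the right edge and the cerebellar genes Gabra6 and Fat2 far below the other abundant genes.

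Among the 12 named genes with the smallest p in each direction whose pools did not overlap, Gfap, an intermediate filament protein of astrocytes, rose most clearly apart from genes of the ribosome. Gfap (ENSRNOG00000002919) was at 140.3, 203 and 171 CPM in the AL pools and 535, 758 and 680.3 CPM in the CR>AL+LA pools (log2 fold change 1.94 with a standard error of 0.15, adjusted p = 5.77e-08). Every CR>AL+LA pool held more than 2 times the level of every AL pool. Ywhah (ENSRNOG00000026119), the eta form of the 14-3-3 adaptor proteins, was at 336, 349.6 and 359.8 CPM in the AL pools and 852, 951 and 957 CPM in the CR>AL+LA pools (log2 fold change 1.40 with a standard error of 0.12, adjusted p = 1.46e-07). Ctsb (ENSRNOG00000010331), the lysosomal protease cathepsin B, stood at 168, 184 and 168 CPM in the AL pools and 398, 422 and 421 CPM in the CR>AL+LA pools (log2 fold change 1.25 with a standard error of 0.12, adjusted p = 1.14e-06). Both rose with little spread inside either diet. The neuronal endoplasmic reticulum protein RTN1 (ENSRNOG00000004794) was at 275, 287 and 269.8 CPM in the AL pools and 583, 692 and 599 CPM in the CR>AL+LA pools (log2 fold change 1.17 with a standard error of 0.12, adjusted p = 2.91e-06). Tmsb10 (ENSRNOG00000042499), a thymosin that binds actin monomers, was at 17.7, 24.4 and 22.9 CPM in the AL pools and 68.3, 69.2 and 76.2 CPM in the CR>AL+LA pools (log2 fold change 1.72 with a standard error of 0.16, adjusted p = 1.18e-06). Ftl (ENSRNOG00000031506), the light chain of the iron store ferritin, was low in AL, with 2.65, 6.67 and 3.01 CPM in the AL pools and 33.2, 33.97 and 29.4 CPM in the CR>AL+LA pools (log2 fold change 3.03 with a standard error of 0.27, adjusted p = 7.6e-07), and as a gene with near-identical copies its level is uncertain because reads that map more than once were not counted.

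The 12 named genes that fell belong to several functions. Sult1a1 (ENSRNOG00000019342), a phenol sulphotransferase, was at 27.3, 35.1 and 30.1 CPM in the AL pools and 10.4, 13.9 and 13.7 CPM in the CR>AL+LA pools (log2 fold change −1.28 with a standard error of 0.20, adjusted p = 0.000515). Htra1 (ENSRNOG00000020533), a secreted serine protease, was at 139, 168 and 153 CPM in the AL pools and 85.6, 87.3 and 87.5 CPM in the CR>AL+LA pools (log2 fold change −0.82 with a standard error of 0.13, adjusted p = 0.000524). In both the AL pools lay above every CR>AL+LA pool. Wipf3 (ENSRNOG00000009571), an actin regulator, was at 64.04, 124 and 81.7 CPM in the AL pools and 34.8, 34.2 and 36.1 CPM in the CR>AL+LA pools (log2 fold change −1.35 with a standard error of 0.19, adjusted p = 0.000194), and Cox7a2l2 (ENSRNOG00000027791) was at 903, 789.97 and 1496 CPM in the AL pools and 473, 409 and 409 CPM in the CR>AL+LA pools (log2 fold change −1.31 with a standard error of 0.17, adjusted p = 0.000101). RGD1559955 (ENSRNOG00000032765) was at 32.02, 35.9 and 42.3 CPM in the AL pools and 15.9, 13.6 and 15.3 CPM in the CR>AL+LA pools (log2 fold change −1.30, adjusted p = 0.000219). A channel and signalling genes were among the others. Trpm3 (ENSRNOG00000027770), a cation channel, was at 112, 101 and 155 CPM in the AL pools and 65.01, 55.3 and 54.95 CPM in the CR>AL+LA pools (log2 fold change −1.07, adjusted p = 0.000278). The G protein regulator Rgs8 (ENSRNOG00000002369) was at 95.7, 64.6 and 100.4 CPM in the AL pools and 45.8, 36.9 and 27.5 CPM in the CR>AL+LA pools (log2 fold change −1.23, adjusted p = 0.000306). Snrk (ENSRNOG00000004050), a kinase related to AMPK, was at 206, 84.7 and 215 CPM in the AL pools and 61.99, 62.97 and 62.4 CPM in the CR>AL+LA pools (log2 fold change −1.44, adjusted p = 0.000561). Its AL pools 7 and 9 carried most of the difference, and without them the call was lost (log2 fold change −0.44, adjusted p = 0.103). Tcf7l2 and Slc17a6, also among the 12, are described with their groups. All 24 genes passed in each fit that left out 1 pool. They were picked for small p and pools without overlap in the same libraries, so these refits favoured them. Of all 1003 DE genes, 463 to 932 were called again when 1 pool was left out. With all 13 groups of the series in 1 fit, which shares 1 estimate of the spread, 22 passed, Slc17a6 (log2 fold change −1.26, adjusted p = 0.289) and Tcf7l2 (log2 fold change −1.56, adjusted p = 0.0976) being the exceptions. With the cerebellar marker level added to that fit as a covariate 20 passed, Trpm3 being among the further losses (log2 fold change −0.77, adjusted p = 0.0607), and with the Rn28s level in its place, which was added after the data had been seen, 17 passed, Rn28s itself counted among those that did not.

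The 5 genes of MHC class II antigen presentation rose together. These genes encode the paired chains that show peptides to helper T cells and the invariant chain that guides them, and in brain they are expressed mainly by microglia and other macrophages. All 5 tested members were called higher, beside 26.5% of all named genes. Their median log2 fold change was 1.64, against −0.01 for all genes. The α chain gene RT1-Ba (ENSRNOG00000000451) was at 15.1, 28.4 and 21.98 CPM in the AL pools and 71.3, 59.7 and 96.95 CPM in the CR>AL+LA pools (log2 fold change 1.81 with a standard error of 0.21, adjusted p = 2.09e-05), and its β partner RT1-Bb (ENSRNOG00000032708) at 4.69, 13.9 and 5.55 CPM in the AL pools and 25.5, 20.1 and 31.8 CPM in the CR>AL+LA pools (log2 fold change 1.72 with a standard error of 0.31, adjusted p = 0.00188). The second pair lay apart likewise, with RT1-Da (ENSRNOG00000032844) at 13.5, 21.2 and 12.3 CPM in the AL pools and 49.1, 36.7 and 60.1 CPM in the CR>AL+LA pools (log2 fold change 1.64 with a standard error of 0.22, adjusted p = 0.000102) and RT1-Db1 (ENSRNOG00000033215) at 10.8, 18.3 and 11.8 CPM in the AL pools and 43.3, 25.8 and 46.7 CPM in the CR>AL+LA pools (log2 fold change 1.51 with a standard error of 0.24, adjusted p = 0.000525). The invariant chain Cd74 (ENSRNOG00000018735) was at 20.6, 46.7 and 25.7 CPM in the AL pools and 89.97, 80.8 and 112 CPM in the CR>AL+LA pools (log2 fold change 1.62 with a standard error of 0.22, adjusted p = 0.000102). In each of the 5 the AL pools lay below all CR>AL+LA pools, AL pool 8 was the highest of the AL pools, and without AL pools 7 and 9 the median was 1.06, with 4 of the 5 passing. Paralogous chains of this family share sequence, and reads mapping more than once were not counted.

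The promoters of the 4 chain genes are shown because the genes moved together and share a known element. The Y box is an inverted CCAAT motif that binds NF-Y and is part of the enhancer common to class II promoters. Its letters CTGATTGG, searched on both strands in the 250 bases before each RefSeq start site, were found once in each of the 4 and not in Cd74, and 3.19% of the 33469 rat promoters in the RefSeq table (GRCr8) hold them. A match is a description of the sequence and says nothing about binding in these rats. The 100 bases before the start sites follow, 5′ to 3′ on the gene's strand, with the Y box letters in capitals, for RT1-Ba at chr20:4576957-4577056 (plus strand), RT1-Bb at chr20:4604119-4604218 (minus), RT1-Da at chr20:4515315-4515414 (plus) and RT1-Db1 at chr20:4560163-4560262 (minus).
RT1-Ba: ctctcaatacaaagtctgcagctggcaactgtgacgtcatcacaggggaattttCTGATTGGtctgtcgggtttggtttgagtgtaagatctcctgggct
RT1-Bb: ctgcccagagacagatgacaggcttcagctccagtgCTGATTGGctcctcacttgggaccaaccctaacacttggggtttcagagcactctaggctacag
RT1-Da: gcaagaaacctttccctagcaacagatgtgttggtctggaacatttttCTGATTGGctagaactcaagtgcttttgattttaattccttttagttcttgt
RT1-Db1: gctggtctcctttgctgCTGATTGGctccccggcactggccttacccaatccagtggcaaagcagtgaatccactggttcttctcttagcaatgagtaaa
In RT1-Ba the match ended 39 bases before the start site, in RT1-Da 45, in RT1-Bb 57 and in RT1-Db1 76 bases.

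Markers of microglia were read beside the class II genes. Calls of markers here stand beside 26.5% called higher and 20.3% called lower among all named genes. The summed level of the 5 named markers was 55.1 to 75.7 CPM in the AL pools and 90.7 to 96.4 CPM in the CR>AL+LA pools. The integrin Itgam (ENSRNOG00000019728) was at 5.3, 6.96 and 2.08 CPM in the AL pools and 16.7, 9.92 and 15.7 CPM in the CR>AL+LA pools (log2 fold change 1.57, adjusted p = 0.00955) and the adaptor Tyrobp (ENSRNOG00000020845) at 6.73, 10.4 and 9.03 CPM in the AL pools and 14.8, 20.3 and 19.2 CPM in the CR>AL+LA pools (log2 fold change 1.07, adjusted p = 0.012), so 2 of 5 rose. Aif1 was at 11.4, 11.3 and 12.3 against 23.3, 17.9 and 14.9 CPM (adjusted p = 0.0762), Tmem119 at 14.5, 16.8 and 12.03 against 17.3, 26.5 and 21.6 CPM (adjusted p = 0.115) and the complement gene C1qc at 17.9, 30.1 and 19.7 against 22.5, 21.8 and 19.2 CPM (adjusted p = 0.903). None of the 5 passed without AL pools 7 and 9, though the median log2 fold change of the list was 0.74 there, against 0.69 with them. The part of these cells in the class II difference was not tested. The 4 named astrocyte markers did not follow Gfap as a group. The water channel Aqp4 was at 663, 613 and 670.2 against 691, 792 and 723 CPM (adjusted p = 0.413), and 2 others fell, the connexin Gjb6 (ENSRNOG00000022116) with 101, 97.7 and 98.6 CPM in the AL pools and 38.7, 57.02 and 62.8 CPM in the CR>AL+LA pools (log2 fold change −0.91, adjusted p = 0.00144) and the growth factor receptor Fgfr3 (ENSRNOG00000016818) with 61.4, 75.4 and 67.6 CPM in the AL pools and 40.05, 38.4 and 57.3 CPM in the CR>AL+LA pools (log2 fold change −0.60, adjusted p = 0.0328).

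The list of cytosolic ribosomal proteins had the most members that rose. Of 63 identifiers tested, which stand for 43 listed proteins because several symbols have more than 1 identifier, 36 were higher, 3 lower and 24 not called, with a median log2 fold change of 0.61. The shares over all named genes were 26.5% higher and 20.3% lower. Rpl35 (ENSRNOG00000014272) was at 24.5, 30.7 and 30.3 CPM in the AL pools and 118, 112 and 113 CPM in the CR>AL+LA pools (log2 fold change 2.01 with a standard error of 0.15, adjusted p = 2.06e-08). Rpl8 (ENSRNOG00000032635) was at 27.3, 28.1 and 23.8 CPM in the AL pools and 98.7, 102 and 108 CPM in the CR>AL+LA pools (log2 fold change 1.96 with a standard error of 0.14, adjusted p = 2.43e-08). Rps29 (ENSRNOG00000004196) was at 109.7, 66.1 and 99.5 CPM in the AL pools and 321, 305 and 225 CPM in the CR>AL+LA pools (log2 fold change 1.62, adjusted p = 5.37e-06) and Rps26 (ENSRNOG00000005517) at 20.4, 15.1 and 16.7 CPM in the AL pools and 45.3, 52.1 and 61.2 CPM in the CR>AL+LA pools (log2 fold change 1.59, adjusted p = 1.77e-05). In each of these genes the lowest CR>AL+LA pool was above 2 times the highest AL pool. Those that fell included 1 identifier each of Rplp1 and Rps15a, named here after their values were seen. Ribosomal protein genes have many processed copies in the genome, and uniquely mapped reads may be split among them in ways that these counts do not show. Without AL pools 7 and 9 the list had 31 higher and 2 lower, and with the Rn28s level as a covariate 9 higher and 0 lower.

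The ribosomal RNA gene was also higher in CR>AL+LA. Rn28s was at 5593, 6072 and 2927 CPM in the AL pools and 33330, 32038 and 34152 CPM in the CR>AL+LA pools (log2 fold change 2.77 with a standard error of 0.19, adjusted p = 1.28e-08), a difference larger than that of any ribosomal protein gene. Over all 39 libraries 26 other genes tested had a Pearson correlation of at least 0.8 in size with Rn28s on the log2 scale, none of them with a name. All 26 were DE and higher in CR>AL+LA, beside 3.44% of all genes tested. The 39 libraries include those compared here, in which Rn28s itself differed, so this choice favoured genes with the same direction. For the ribosomal protein genes above the correlation was lower, at 0.38 for Rpl35, 0.34 for Rpl8, 0.30 for Rps29 and 0.35 for Rps26. The points of that correlation share libraries and depletion, and it is given as a description. The part of depletion in the difference of Rn28s was not tested.

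Nuclear genes of oxidative phosphorylation were called higher in all 3 of their lists, and none of the members tested was called lower. Counts of this paragraph stand beside 26.5% higher and 20.3% lower among all named genes. The lowest log2 fold change in the ATP synthase list was −0.19. Cox7a2l2, described above as lower, is in none of the 3 lists, though its symbol is of the cytochrome c oxidase subunit VIIa family. Complex I feeds electrons from NADH into the respiratory chain, and 10 of its 20 named subunits were higher, with a median log2 fold change of 0.58. Ndufa3 (ENSRNOG00000014224) was at 8.57, 8.41 and 11.8 CPM in the AL pools and 36.8, 43.1 and 27.5 CPM in the CR>AL+LA pools (log2 fold change 1.91 with a standard error of 0.22, adjusted p = 1.88e-05) and Ndufab1 (ENSRNOG00000018129), an acyl carrier protein, at 26.1, 23.5 and 27.5 CPM in the AL pools and 57.3, 59.5 and 80.5 CPM in the CR>AL+LA pools (log2 fold change 1.34 with a standard error of 0.17, adjusted p = 4.78e-05). Ndufa1 (ENSRNOG00000040005) was at 25.7, 24.6 and 23.4 CPM in the AL pools and 56.8, 46.6 and 48.3 CPM in the CR>AL+LA pools (log2 fold change 1.04, adjusted p = 0.000411) and Ndufb3 (ENSRNOG00000011825) at 37.1, 26.1 and 28.5 CPM in the AL pools and 66.4, 53.3 and 74.6 CPM in the CR>AL+LA pools (log2 fold change 1.07, adjusted p = 0.000652). The pools of the 2 diets were apart in all 4. In complexes III and IV 11 of 15 identifiers were higher, with a median of 0.64. Uqcrb (ENSRNOG00000032204), a subunit of cytochrome bc1, was at 30.6, 29.3 and 22.2 CPM in the AL pools and 75.4, 58.3 and 64.4 CPM in the CR>AL+LA pools (log2 fold change 1.27, adjusted p = 8.68e-05), and the second identifier of this symbol, ENSRNOG00000024967, at 44.9, 25.5 and 38.2 against 71.9, 84.8 and 96.6 CPM (log2 fold change 1.20, adjusted p = 0.000264). Cox6a1 (ENSRNOG00000001170), of cytochrome c oxidase, was at 136, 127 and 125 CPM in the AL pools and 217, 217 and 199 CPM in the CR>AL+LA pools (log2 fold change 0.70, adjusted p = 0.00133), and Uqcr11 (ENSRNOG00000016952), of cytochrome bc1, at 72.8, 63.8 and 60.6 CPM in the AL pools and 107, 108 and 124 CPM in the CR>AL+LA pools (log2 fold change 0.78, adjusted p = 0.00149). Of 6 ATP synthase genes 3 were higher, Atp5i (ENSRNOG00000000064) with 22.6, 14.5 and 27.5 CPM in the AL pools and 54.03, 56.5 and 48.3 CPM in the CR>AL+LA pools (log2 fold change 1.29, adjusted p = 0.000293), Atp5o (ENSRNOG00000001991) with 106, 74.2 and 74.3 CPM in the AL pools and 134, 149 and 133 CPM in the CR>AL+LA pools (log2 fold change 0.71, adjusted p = 0.00629) and Atp5j2 (ENSRNOG00000027049) with 72.2, 57.98 and 56.5 CPM in the AL pools and 80.6, 91.7 and 93.03 CPM in the CR>AL+LA pools (log2 fold change 0.50, adjusted p = 0.0401). Without AL pools 7 and 9 the 3 lists had 8, 9 and 4 genes higher, and 10, 10 and 2 with the cerebellar covariate. With the Rn28s covariate 6, 5 and 0 were higher and 1 ATP synthase gene, Atp5c1, was lower (log2 fold change −0.79, adjusted p = 0.016). The 2 named genes of the tricarboxylic acid cycle did not pass, Sdhb with 80.6, 66.7 and 109 against 129, 113 and 105 CPM (adjusted p = 0.119) and Idh1 with 64.04, 44.1 and 49.5 against 54.6, 68.4 and 57.7 CPM (adjusted p = 0.555). In the proteasome, which degrades ubiquitinated proteins, Psma1 (ENSRNOG00000011745) was higher among 3 named subunits, with 48.95, 37.98 and 40.3 CPM in the AL pools and 66.4, 57.8 and 60.1 CPM in the CR>AL+LA pools (log2 fold change 0.53, adjusted p = 0.0412).

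The list of lipoic acid synthesis and the lipoylated enzyme complexes had 3 named members only, all tied to the complexes. The phosphatase Pdp1 (ENSRNOG00000016180), which activates the lipoylated pyruvate dehydrogenase complex, was at 176, 207 and 219 CPM in the AL pools and 142, 136 and 146 CPM in the CR>AL+LA pools (log2 fold change −0.50 with a standard error of 0.13, adjusted p = 0.0203), lower in every CR>AL+LA pool than in any AL pool. Bckdk and Amt, of the branched-chain and glycine complexes, had log2 fold changes of 0.48 and −0.44 and did not pass (adjusted p = 0.15 and 0.274). The other 21 genes of this list had no name matched to an identifier and were not analysed here.

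The lists of metallothioneins, glutathione enzymes and antioxidant genes each held more genes called higher than called lower. Metallothioneins are small cysteine-rich proteins that bind zinc and copper, and 2 of 3 rose, beside 26.5% of all named genes. MT1 (ENSRNOG00000038047) was at 3.06, 2.03 and 2.08 CPM in the AL pools and 13.7, 12.6 and 26.7 CPM in the CR>AL+LA pools (log2 fold change 2.81 with a standard error of 0.36, adjusted p = 5.59e-05), the largest fold among the named members of all lists that rose. Mt2A (ENSRNOG00000043098) was at 15.9, 13.05 and 16.4 CPM in the AL pools and 18.1, 35.9 and 58.1 CPM in the CR>AL+LA pools (log2 fold change 1.27 with a standard error of 0.28, adjusted p = 0.00977), with pool 28 close to the AL pools and pools 29 and 30 well above them. Mt3 (ENSRNOG00000018958), the neuronal form, was at 75.9, 80.9 and 105 CPM in the AL pools and 100.4, 139 and 93.8 CPM in the CR>AL+LA pools (adjusted p = 0.222). The promoters of the genes that rose are shown because metallothioneins are the textbook case of induction through metal response elements. The core TGCGCNC was searched on both strands in the 250 bases before the start sites and found 3 times in Mt1, 2 times in Mt2A and 2 times in Mt3, which did not pass the test, and it is present in 11.8% of the rat promoters. The 180 bases before the start sites of Mt1 at chr19:10832976-10833155 and Mt2A at chr19:10838709-10838888 (GRCr8, both minus strand, from RefSeq) follow with the core in capitals.
Mt1: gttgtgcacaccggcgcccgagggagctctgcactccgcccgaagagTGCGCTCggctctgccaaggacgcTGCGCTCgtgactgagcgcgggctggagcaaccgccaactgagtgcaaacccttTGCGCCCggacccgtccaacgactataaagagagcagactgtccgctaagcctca
Mt2A: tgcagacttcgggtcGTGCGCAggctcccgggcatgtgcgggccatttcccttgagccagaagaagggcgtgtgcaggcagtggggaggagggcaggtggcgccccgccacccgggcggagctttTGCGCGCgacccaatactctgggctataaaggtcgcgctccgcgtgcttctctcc
In both genes 1 match ended 49 bases before the start site, and the others lay farther upstream.

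Glutathione enzymes join glutathione to reactive compounds or use it against peroxides, and 3 of 6 were higher and 1 lower. Among all named genes 26.5% were called higher and 20.3% lower. Gstm1 (ENSRNOG00000029726) was at 49.6, 55.95 and 58.5 CPM in the AL pools and 114, 119.7 and 97.3 CPM in the CR>AL+LA pools (log2 fold change 1.02, adjusted p = 0.000132), Gstp1 (ENSRNOG00000018237) at 22.2, 30.4 and 20.6 CPM in the AL pools and 61.99, 55.5 and 51.8 CPM in the CR>AL+LA pools (log2 fold change 1.22, adjusted p = 0.000189) and Gsta1 (ENSRNOG00000013484) at 58.7, 53.3 and 47.9 CPM in the AL pools and 91.1, 107 and 109 CPM in the CR>AL+LA pools (log2 fold change 0.94, adjusted p = 0.000293). Gsto1 (ENSRNOG00000028746), of the omega class, fell, with 77.5, 82.3 and 69.7 CPM in the AL pools and 57.3, 54.8 and 47.9 CPM in the CR>AL+LA pools (log2 fold change −0.51, adjusted p = 0.0338). All 4 also passed without AL pools 7 and 9. Of 9 thioredoxin, peroxiredoxin and other antioxidant genes 5 were called higher and none was called lower. The reductase of cytochrome P450 enzymes, Por (ENSRNOG00000001442), was at 13.5, 22.03 and 15.3 CPM in the AL pools and 26.1, 37.4 and 38.9 CPM in the CR>AL+LA pools (log2 fold change 1.02, adjusted p = 0.0062). Prdx5 (ENSRNOG00000021125), a peroxiredoxin, was at 54.3, 58.6 and 49.99 CPM in the AL pools and 81.5, 98.2 and 75.4 CPM in the CR>AL+LA pools (log2 fold change 0.65, adjusted p = 0.00875), and Sod1 (ENSRNOG00000002115), which dismutates superoxide, at 136, 98.3 and 159.7 CPM in the AL pools and 190.4, 206 and 181 CPM in the CR>AL+LA pools (log2 fold change 0.55, adjusted p = 0.0333). Txnip (ENSRNOG00000021201), which inhibits thioredoxin, was at 36.1, 39.4 and 41.7 CPM in the AL pools and 64.7, 55.04 and 61.2 CPM in the CR>AL+LA pools (log2 fold change 0.63, adjusted p = 0.0135). Without AL pools 7 and 9 only 1 of the 9 passed, with a median log2 fold change of 0.50 against 0.60 with them, and 4 passed with the cerebellar covariate. The 2 blood genes named, both α-globins, rose too. Hba-a2 (ENSRNOG00000029886) was at 57.7, 52.2 and 77.1 CPM in the AL pools and 227, 248 and 165 CPM in the CR>AL+LA pools (log2 fold change 1.77, adjusted p = 1.14e-06) and Hba2 (ENSRNOG00000047321) at 19.4, 27.3 and 27.1 CPM in the AL pools and 115, 109 and 71.8 CPM in the CR>AL+LA pools (log2 fold change 2.02, adjusted p = 8.61e-07), and blood left in the tissue was not tested as a source.

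**Figure D3:**
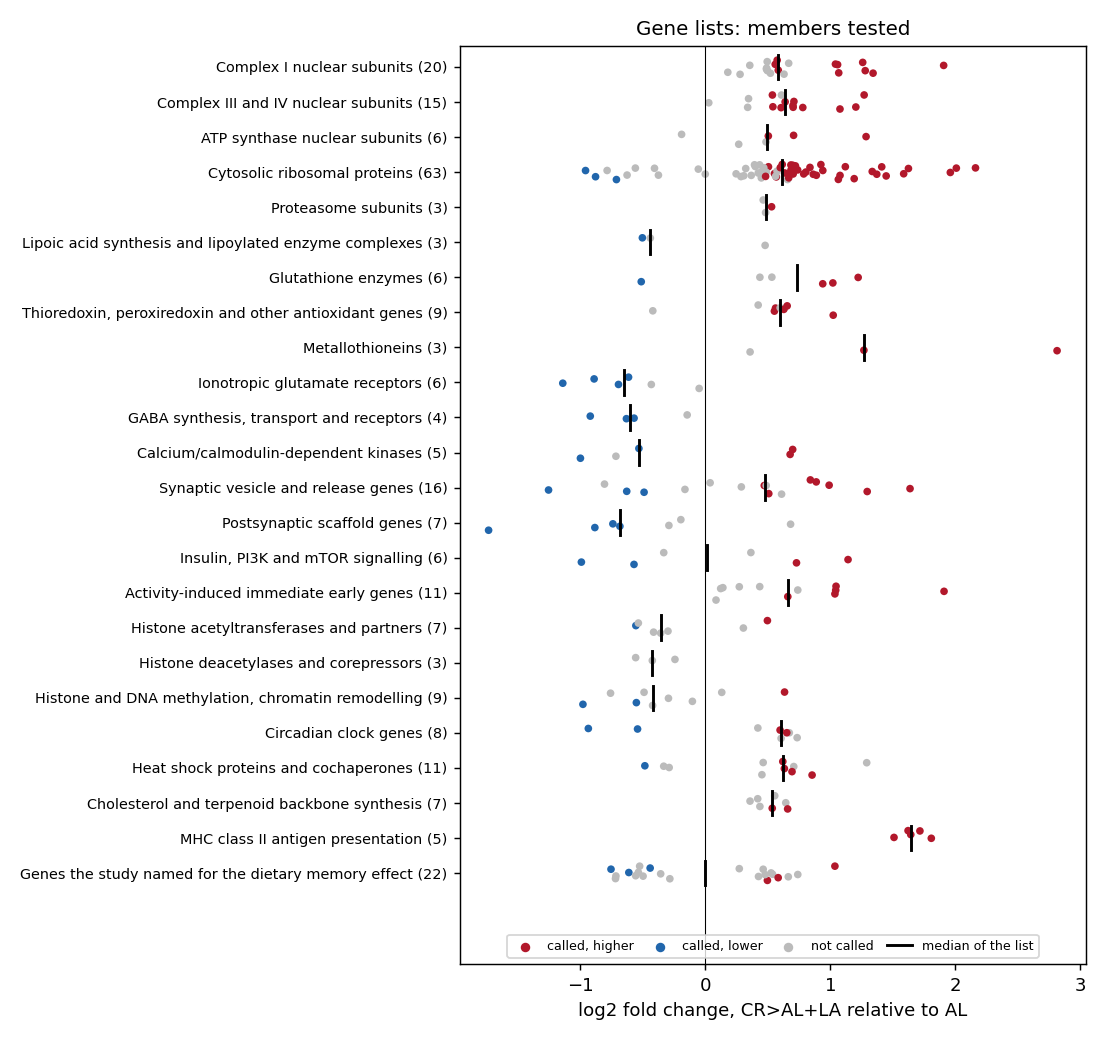
Log2 fold change of CR>AL+LA relative to AL for the members of each gene list with at least 3 tested members (number in brackets); each point is an identifier, red if called higher, blue if called lower and grey if not called, and the black bar is the median of the list. The lists of the ribosome and of oxidative phosphorylation have medians between 0.49 and 0.64, MHC class II lies at 1.64, and receptor and scaffold lists lie below 0.

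Synaptic vesicle genes were called in both directions, beside 26.5% higher and 20.3% lower among all named genes. Of 16 identifiers for synaptic vesicle and release genes 7 were higher and 3 lower. Pcsk1n (ENSRNOG00000007112), an inhibitor of prohormone convertase, was at 11.8, 17.97 and 12.96 CPM in the AL pools and 39.5, 51.6 and 40.04 CPM in the CR>AL+LA pools (log2 fold change 1.64 with a standard error of 0.20, adjusted p = 3.13e-05). Syt1 (ENSRNOG00000006426), the calcium sensor of fast release, was at 145, 209.6 and 153 CPM in the AL pools and 331, 356 and 319 CPM in the CR>AL+LA pools (log2 fold change 0.99 with a standard error of 0.14, adjusted p = 0.000177), and Chgb (ENSRNOG00000021269), a protein of dense-core vesicles, at 76.5, 87.8 and 86.1 CPM in the AL pools and 149, 145 and 153 CPM in the CR>AL+LA pools (log2 fold change 0.84 with a standard error of 0.13, adjusted p = 0.000328). Stx1a (ENSRNOG00000029165), a SNARE protein of the plasma membrane, was at 12.8, 22.3 and 12.03 CPM in the AL pools and 39.2, 37.4 and 37.3 CPM in the CR>AL+LA pools (log2 fold change 1.29, adjusted p = 0.000774). In these 4 genes every CR>AL+LA pool lay above every AL pool. Those that fell were the vesicular glutamate transporter Slc17a6 (ENSRNOG00000016147) with 54.9, 79.1 and 74.98 CPM in the AL pools and 36.5, 24.5 and 25.9 CPM in the CR>AL+LA pools (log2 fold change −1.26 with a standard error of 0.18, adjusted p = 0.000219), the active zone scaffold Bsn (ENSRNOG00000030714) with 346, 511 and 337 CPM in the AL pools and 229, 253 and 289 CPM in the CR>AL+LA pools (log2 fold change −0.63, adjusted p = 0.0145) and the SNARE protein Vamp1 (ENSRNOG00000019219) with 106, 122 and 129 CPM in the AL pools and 97.4, 78.1 and 78.5 CPM in the CR>AL+LA pools (log2 fold change −0.49, adjusted p = 0.0399). Slc17a6 is also strongly expressed in thalamus. The 2 named markers of thalamus and hypothalamus fell, Tcf7l2 (ENSRNOG00000049232) with 19.6, 29.9 and 30.8 CPM in the AL pools and 7.95, 8.43 and 10.99 CPM in the CR>AL+LA pools (log2 fold change −1.56, adjusted p = 0.000329) and Prkcd (ENSRNOG00000016346) with 23.9, 79.7 and 67.1 CPM in the AL pools and 24.96, 17.4 and 21.6 CPM in the CR>AL+LA pools (log2 fold change −1.41, adjusted p = 0.00637), and the part of neighbouring tissue in these 3 differences was not tested.

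Receptors and postsynaptic genes went lower where they were called. Over all named genes 20.3% were called lower and 26.5% higher. Of 6 ionotropic glutamate receptor genes 4 were lower, among them Grin2c (ENSRNOG00000003280) with 39.4, 36.8 and 53.7 CPM in the AL pools and 22.8, 23.8 and 23.6 CPM in the CR>AL+LA pools (log2 fold change −0.89, adjusted p = 0.00459), Gria4 (ENSRNOG00000006957) with 361, 186 and 380.2 CPM in the AL pools and 193, 194 and 187 CPM in the CR>AL+LA pools (log2 fold change −0.70, adjusted p = 0.0274) and Grik2 (ENSRNOG00000000368) with 207, 134 and 205 CPM in the AL pools and 134, 126 and 96.2 CPM in the CR>AL+LA pools (log2 fold change −0.62, adjusted p = 0.0282). In Gria4 and Grik2 AL pools 7 and 9, which held the cerebellar markers, were well above AL pool 8. Grin2c is typical of cerebellar granule cells. Its AL pool 7 was close to AL pool 8, and both lay above every CR>AL+LA pool. The log2 fold change of Grin2c was −0.65 without AL pools 7 and 9. Without these pools none of the 6 passed and the median of the list moved from −0.66 to −0.15. Of 7 postsynaptic scaffold genes 4 were lower, and without pools 7 and 9 the number was 4 again, though not of the same genes. Nrxn3 (ENSRNOG00000047574), a presynaptic adhesion partner of this list, was at 133, 121 and 148 CPM in the AL pools and 78.7, 80.6 and 80.9 CPM in the CR>AL+LA pools (log2 fold change −0.74 with a standard error of 0.13, adjusted p = 0.00165). Shank1 (ENSRNOG00000019207) was at 41.6, 85.5 and 42.3 CPM in the AL pools and 26.1, 29.8 and 35.7 CPM in the CR>AL+LA pools (log2 fold change −0.89, adjusted p = 0.0255) and Shank3 (ENSRNOG00000032936) at 27.1, 41.5 and 30.5 CPM in the AL pools and 19.2, 20.6 and 21.6 CPM in the CR>AL+LA pools (log2 fold change −0.68, adjusted p = 0.0395), both scaffolds under glutamate receptors. Homer3 (ENSRNOG00000020229), which links them to calcium stores, was at 19.99, 11.6 and 16.2 CPM in the AL pools and 4.94, 4.46 and 5.1 CPM in the CR>AL+LA pools (log2 fold change −1.74, adjusted p = 0.000825) and did not itself pass without pools 7 and 9 (log2 fold change −1.26, adjusted p = 0.0937). Genes of GABA signalling were lower in 3 of 4 cases. The synthetic enzyme Gad1 (ENSRNOG00000000007) was at 277, 241 and 283 CPM in the AL pools and 189, 159.9 and 168 CPM in the CR>AL+LA pools (log2 fold change −0.63 with a standard error of 0.12, adjusted p = 0.00383) and stayed past the threshold without pools 7 and 9. The receptor subunit Gabrd (ENSRNOG00000016385), abundant in granule cells, was at 77.7, 45.2 and 90.7 CPM in the AL pools and 38.9, 35.7 and 38.9 CPM in the CR>AL+LA pools (log2 fold change −0.92, adjusted p = 0.00646) and lost its call (log2 fold change −0.26, adjusted p = 0.564).

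Interneuron and pyramidal markers did not fall with Gad1. The share called higher over all named genes was 26.5%. Somatostatin, Sst (ENSRNOG00000001837), was at 39.8, 64.4 and 40.03 CPM in the AL pools and 81.5, 86.5 and 92.6 CPM in the CR>AL+LA pools (log2 fold change 0.86, adjusted p = 0.0038), which lost its call without AL pools 7 and 9 (log2 fold change 0.43, adjusted p = 0.124), and Vip was at 49.6, 37.1 and 36.6 against 46.6, 61.5 and 80.1 CPM (adjusted p = 0.0605). The excitatory markers Nrgn (ENSRNOG00000010688) and Neurod6 (ENSRNOG00000026055) rose, with 64.7, 97.1 and 66.4 against 155, 157 and 177 CPM (log2 fold change 1.10, adjusted p = 0.000153) and 39.8, 31.9 and 30.1 against 65.01, 62.2 and 74.97 CPM (log2 fold change 0.98, adjusted p = 0.000577). Without AL pools 7 and 9 both passed (log2 fold change 0.74, adjusted p = 0.00139 for Nrgn, log2 fold change 1.07, adjusted p = 0.000819 for Neurod6). The third marker, Fezf2, was at 5.71, 8.7 and 5.09 against 5.76, 9.67 and 10.6 CPM (adjusted p = 0.524). In oligodendrocytes 2 of 3 markers rose, Opalin (ENSRNOG00000022386) with 101, 125 and 97.2 against 257, 174 and 182 CPM (log2 fold change 0.92, adjusted p = 0.000955) and Mog (ENSRNOG00000000775) with 89.5, 100.02 and 90.3 against 146, 126 and 134 CPM (log2 fold change 0.54, adjusted p = 0.0145), while Cldn11 was at 122, 164 and 165 against 239, 172 and 213 CPM (adjusted p = 0.0642). The single named markers of choroid plexus (Aqp1), endothelium and pericytes (Vtn) and striatum (Penk) had adjusted p values of 0.084, 0.141 and 0.434.

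Calcium signalling and activity genes were mixed, beside 26.5% higher and 20.3% lower among all named genes. Of 5 genes listed with the calcium/calmodulin-dependent kinases 2 were higher, the calmodulin gene Calm2 (ENSRNOG00000030871) with 321, 254 and 396 CPM in the AL pools and 527, 519.6 and 507 CPM in the CR>AL+LA pools (log2 fold change 0.68, adjusted p = 0.0049) and the inhibitor Camk2n1 (ENSRNOG00000016322) with 139.5, 131 and 108 CPM in the AL pools and 196, 193 and 226 CPM in the CR>AL+LA pools (log2 fold change 0.70, adjusted p = 0.00301). The kinase genes Camk4 (ENSRNOG00000020478), with 89.1, 65.5 and 105 CPM in the AL pools and 47.2, 46.1 and 36.1 CPM in the CR>AL+LA pools (log2 fold change −1.001, adjusted p = 0.0011), and Camk2d (ENSRNOG00000011589), with 261, 168 and 241 CPM in the AL pools and 145, 177 and 141 CPM in the CR>AL+LA pools (log2 fold change −0.53, adjusted p = 0.0434), were lower, and both lost their calls without AL pools 7 and 9. Of 11 immediate early genes, which are transcribed within minutes of neuronal firing, 5 were higher and none lower. Jun (ENSRNOG00000026293) was at 14.1, 7.25 and 11.8 CPM in the AL pools and 25.8, 24.3 and 18.8 CPM in the CR>AL+LA pools (log2 fold change 1.04, adjusted p = 0.0108) and Arc (ENSRNOG00000043465), which regulates glutamate receptor traffic, at 143, 122 and 78.9 CPM in the AL pools and 199, 177 and 166 CPM in the CR>AL+LA pools (log2 fold change 0.66, adjusted p = 0.0216). Btg2 (ENSRNOG00000003300) was at 13.3, 8.41 and 7.41 CPM in the AL pools and 79.8, 15.6 and 13.7 CPM in the CR>AL+LA pools (log2 fold change 1.91, adjusted p = 0.0161), where pool 28 exceeded the other CR>AL+LA pools by far. Egr3 (ENSRNOG00000017828) was at 5.91, 6.38 and 4.17 CPM in the AL pools and 9.33, 13.1 and 11.4 CPM in the CR>AL+LA pools (log2 fold change 1.04, adjusted p = 0.04) and the kinase Sik1 (ENSRNOG00000001189) at 6.93, 4.06 and 4.86 CPM in the AL pools and 13.2, 10.7 and 9.03 CPM in the CR>AL+LA pools (log2 fold change 1.04, adjusted p = 0.0479). Without pools 7 and 9 2 of the 11 passed. With all 13 groups in 1 fit Jun alone passed, and 0 passed once the cerebellar covariate was added.

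In insulin and mTOR signalling 2 of 6 genes rose and 2 fell. The counts of this paragraph stand beside 26.5% called higher and 20.3% called lower among all named genes. Rheb (ENSRNOG00000050578), the GTPase that activates mTORC1, was at 28.1, 22.9 and 25.9 CPM in the AL pools and 57.6, 60.99 and 51.4 CPM in the CR>AL+LA pools (log2 fold change 1.14 with a standard error of 0.16, adjusted p = 0.000153), and Pik3r1 (ENSRNOG00000018903), a regulatory subunit of PI3K, at 49.6, 54.5 and 50.9 CPM in the AL pools and 75.7, 78.1 and 104.02 CPM in the CR>AL+LA pools (log2 fold change 0.73, adjusted p = 0.00506). Pdpk1 (ENSRNOG00000006136), the kinase that activates AKT, was at 66.1, 77.1 and 88.9 CPM in the AL pools and 44.4, 49.1 and 63.6 CPM in the CR>AL+LA pools (log2 fold change −0.57, adjusted p = 0.0376), and Pik3r3 (ENSRNOG00000000145) at 39.4, 16.2 and 46.98 CPM in the AL pools and 15.1, 16.1 and 21.6 CPM in the CR>AL+LA pools (log2 fold change −0.99, adjusted p = 0.0368), whose difference turned in sign without AL pools 7 and 9. The neurotrophin adaptor Gab1, alone in its list, was at 36.9, 43.8 and 48.1 against 71.9, 50.6 and 56.5 CPM (adjusted p = 0.0935). Of 7 genes of cholesterol synthesis 2 rose and none fell. These were Fdft1 (ENSRNOG00000021314), which makes squalene, with 61.8, 68.1 and 59.2 CPM in the AL pools and 109, 81.8 and 108 CPM in the CR>AL+LA pools (log2 fold change 0.66, adjusted p = 0.00875), and Hmgcs1 (ENSRNOG00000016552), an early enzyme of the pathway, with 350.4, 296 and 251 CPM in the AL pools and 418, 418 and 466 CPM in the CR>AL+LA pools (log2 fold change 0.53, adjusted p = 0.0166). Of 11 identifiers for heat shock proteins and cochaperones 4 rose. Hsph1 (ENSRNOG00000000902), of the HSP110 family, was at 218, 255 and 233 CPM in the AL pools and 346, 386 and 351 CPM in the CR>AL+LA pools (log2 fold change 0.62, adjusted p = 0.00323), and the small heat shock protein Cryab (ENSRNOG00000010524) at 31.6, 42.6 and 49.1 CPM in the AL pools and 65.01, 75.6 and 82.04 CPM in the CR>AL+LA pools (log2 fold change 0.85, adjusted p = 0.00342). Dnajb4 (ENSRNOG00000013011) was at 40.8, 41.7 and 35.9 CPM in the AL pools and 68.3, 59.3 and 55.3 CPM in the CR>AL+LA pools (log2 fold change 0.63, adjusted p = 0.014) and Ahsa1 (ENSRNOG00000048981) at 32.2, 38.3 and 36.8 CPM in the AL pools and 45.3, 60.99 and 67.5 CPM in the CR>AL+LA pools (log2 fold change 0.69, adjusted p = 0.0156), both cochaperones. The cochaperone Stip1 (ENSRNOG00000021164) fell, with 203, 210.5 and 276 CPM in the AL pools and 150.3, 168 and 175 CPM in the CR>AL+LA pools (log2 fold change −0.48, adjusted p = 0.0389).

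Chromatin and clock genes were called in both directions, as were all named genes (26.5% higher and 20.3% lower). Of 7 genes for histone acetyltransferases and their partners Morf4l1 (ENSRNOG00000014410) was higher, with 84.03, 62.6 and 64.3 CPM in the AL pools and 102, 103 and 93.03 CPM in the CR>AL+LA pools (log2 fold change 0.50, adjusted p = 0.0447), and Kansl1 (ENSRNOG00000005544) lower, with 160.3, 115 and 159 CPM in the AL pools and 106, 90.99 and 98.5 CPM in the CR>AL+LA pools (log2 fold change −0.56, adjusted p = 0.0254). None of 3 histone deacetylase and corepressor genes passed, and Hdac5 was at 25.5, 36.2 and 38.9 against 25.2, 23.1 and 19.2 CPM (adjusted p = 0.0989). Of 9 genes of histone and DNA methylation and chromatin remodelling the demethylase Kdm4a (ENSRNOG00000019956) was higher, with 41.4, 32.8 and 37.95 CPM in the AL pools and 62.5, 50.8 and 61.6 CPM in the CR>AL+LA pools (log2 fold change 0.63, adjusted p = 0.0176). The demethylase Kdm6a (ENSRNOG00000004289), with 77.7, 72.5 and 77.1 CPM in the AL pools and 54.9, 49.1 and 51.03 CPM in the CR>AL+LA pools (log2 fold change −0.55, adjusted p = 0.0178), and the remodeller Chd7 (ENSRNOG00000006689), with 47.1, 23.8 and 65.03 CPM in the AL pools and 28.3, 17.9 and 23.6 CPM in the CR>AL+LA pools (log2 fold change −0.98, adjusted p = 0.0293), were lower. The pools of Chd7 overlapped between the diets, and both calls were lost without AL pools 7 and 9 (log2 fold change −0.04, adjusted p = 0.968 for Chd7, log2 fold change −0.49, adjusted p = 0.0928 for Kdm6a). Clock genes were called in 4 of 8 cases, 2 in each direction. Bhlhe40 (ENSRNOG00000007152) was at 52.2, 60.6 and 49.3 CPM in the AL pools and 68.6, 84.8 and 102 CPM in the CR>AL+LA pools (log2 fold change 0.65, adjusted p = 0.0151) and Dbp (ENSRNOG00000021027), a clock output factor, at 35.5, 35.4 and 30.1 CPM in the AL pools and 46.4, 52.1 and 54.6 CPM in the CR>AL+LA pools (log2 fold change 0.60, adjusted p = 0.0253). The repressor Cry2 (ENSRNOG00000007478) was at 119, 137 and 125 CPM in the AL pools and 86.7, 89.996 and 84.4 CPM in the CR>AL+LA pools (log2 fold change −0.54, adjusted p = 0.0139) and the nuclear receptor Rora (ENSRNOG00000027145) at 42.8, 35.7 and 61.8 CPM in the AL pools and 30.2, 21.1 and 21.98 CPM in the CR>AL+LA pools (log2 fold change −0.94, adjusted p = 0.00844). Without AL pools 7 and 9 Cry2 alone among the clock genes passed, and with the cerebellar covariate 0 of the acetyltransferase genes did.

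Of the genes that the study named for its dietary memory effect 22 were tested, and Ppi2, which it also named, was not analysed here. They were chosen on these libraries, so their direction here is not independent evidence. Of them 3 were higher and 3 lower in CR>AL+LA than in AL, and 16 did not pass. Among all named genes 26.5% were higher and 20.3% lower. Besides Morf4l1 and Sik1, Mef2c (ENSRNOG00000033134), a transcription factor of neuronal activity, was higher, with 43.04, 64.1 and 45.6 CPM in the AL pools and 77.1, 70.2 and 80.5 CPM in the CR>AL+LA pools (log2 fold change 0.58, adjusted p = 0.0324). Ppp1r16a (ENSRNOG00000015450), a phosphatase subunit, was at 46.1, 44.6 and 44.4 CPM in the AL pools and 23.3, 30.2 and 26.3 CPM in the CR>AL+LA pools (log2 fold change −0.76, adjusted p = 0.00777), Pygb (ENSRNOG00000007583), the brain glycogen phosphorylase, at 420.2, 364 and 469 CPM in the AL pools and 318, 300.2 and 304 CPM in the CR>AL+LA pools (log2 fold change −0.44, adjusted p = 0.0346) and Chmp1a (ENSRNOG00000016001), of the ESCRT machinery, at 88.3, 90.7 and 59.01 CPM in the AL pools and 45.3, 60.99 and 48.7 CPM in the CR>AL+LA pools (log2 fold change −0.61, adjusted p = 0.0367). In Chmp1a the pools of the diets overlapped. Without AL pools 7 and 9 the log2 fold change was 0.24 for Mef2c and −0.24 for Pygb. It was −0.74 for Ppp1r16a, −0.80 for Chmp1a, 0.67 for Morf4l1 and 1.44 for Sik1. With all 13 groups in 1 fit Mef2c (adjusted p = 0.116) and Sik1 (adjusted p = 0.118) did not pass, while the other genes called did. The activity gene Nr4a1 was at 21.2, 23.2 and 12.96 against 41.97, 28.02 and 24.7 CPM (adjusted p = 0.0617), the kinase Camk1g at 24.5, 18.6 and 25.5 against 16.5, 14.9 and 9.81 CPM (adjusted p = 0.0605) and the cell cycle inhibitor Cdkn1a at 8.36, 14.2 and 9.72 against 11.2, 10.7 and 25.5 CPM (adjusted p = 0.376). Among the other 13 genes the log2 fold changes ran from −0.72 in Bcorl1 to 0.66 in Ppm1f.

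Set against diets that share a phase with it, CR>AL+LA differed far less than against AL. The AL pools also stood apart from CR>AL, AL+LA and CR in library measures. Reads not aligned made up 27.5% to 33.2% in the AL pools and at least 38.1% in every pool of those diets. Rn28s took at most 0.674% of the reads on genes in the AL pools and at least 0.927% in those diets. The part of these measures in the gap between the counts of genes was not tested. The 3 comparisons use the same CR>AL+LA pools and are given side by side. Against CR>AL, which lacks only the LA, the test called 66 genes (0.383%), of which 48 rose and 18 fell in CR>AL+LA. Against AL+LA, which lacks the restricted phase and had LA before 12 months too, edgeR's quasi-likelihood test called 0 genes, with 707 at an unadjusted p under 0.05, and edgeR's exact test and DESeq2 called 0 each. Against CR it called 1 gene (0.0058%), which was lower in CR>AL+LA and had no name, with 829 genes at an unadjusted p under 0.05. The exact test called 5 and DESeq2 1 there. Over all genes the size of the change had a median of 0.19 on the log2 scale against CR>AL and of 0.16 against each of AL+LA and CR, and in data simulated for the AL comparison 63.5% of genes changed 2-fold were recovered at 3 pools against 3. A gene that missed the threshold is not thereby shown to be equal in 2 diets. Of the 24 leading genes described above, Rn28s passed against CR>AL, and 0 passed against AL+LA or CR.

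The leading genes can be read across the diets pool by pool. Gfap was at 665, 606 and 647 CPM in CR>AL, 692, 632 and 862 CPM in AL+LA and 390.1, 696 and 484 CPM in CR. RT1-Ba was at 76.7, 69.4 and 48.5 CPM, 66.9, 76.9 and 63.3 CPM and 59.8, 54.8 and 78.7 CPM in the same diets. Rpl35 was at 101, 119 and 104.42 CPM, 95.3, 96.1 and 103 CPM and 84.999, 97.2 and 102 CPM. In these 3 genes the CR>AL+LA pools lay inside or near the range of the other 3 diets and the AL pools lay below all of them. Sult1a1 was at 10.6, 14.1 and 11.03 CPM in CR>AL, 17.5, 17.2 and 13.6 CPM in AL+LA and 19.4, 21.8 and 22.8 CPM in CR, all below the AL pools. Slc17a6 varied widely within diets, from 7.02 to 99.3 CPM in the CR pools. MT1 was at 9.003, 11.3 and 5.9 CPM, 7.09, 13.7 and 16.4 CPM and 5.57, 13.1 and 9.66 CPM (log2 fold change 0.96 with a standard error of 0.28, adjusted p = 0.169 against CR>AL).

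**Figure D4:**
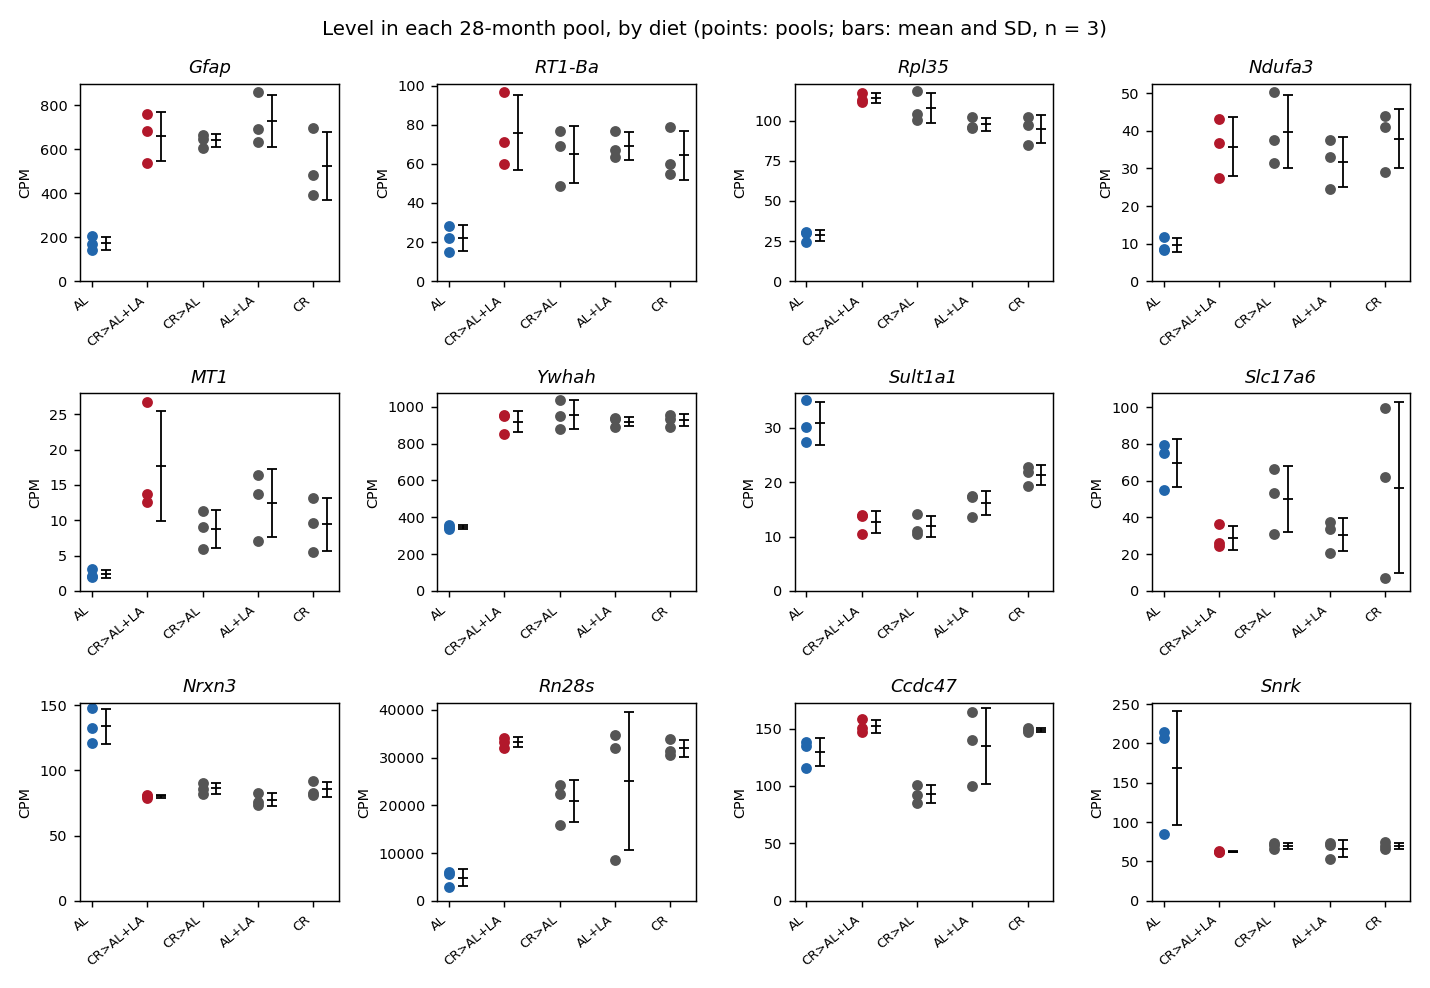
CPM of 12 genes in each 28-month pool of AL (blue), CR>AL+LA (red), CR>AL, AL+LA and CR (grey); points are pools and bars show the mean and SD (n = 3). Gfap, Rpl35, Ndufa3 and Ywhah have their 3 AL pools below all other pools, Sult1a1 and Nrxn3 have them above, and Ccdc47 has its lowest mean in CR>AL.

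Against CR>AL, the named genes with the smallest p that were higher were led by ATP8 (ENSRNOG00000033299), a mitochondrially encoded subunit of ATP synthase, at 708, 602 and 545 CPM in the CR>AL pools and 1097, 967 and 1017 CPM in the CR>AL+LA pools (log2 fold change 0.73 with a standard error of 0.10, adjusted p = 6.88e-05). Ccdc47 (ENSRNOG00000009006), a protein of the endoplasmic reticulum, was at 92.5, 101 and 85.4 CPM and 150.3, 158 and 147 CPM (log2 fold change 0.71 with a standard error of 0.10, adjusted p = 0.000417). Sdf4 (ENSRNOG00000019981), a calcium-binding protein of the Golgi, was at 33.8, 36.8 and 38.5 CPM and 64.2, 62.7 and 67.5 CPM (log2 fold change 0.83 with a standard error of 0.13, adjusted p = 0.000494). Asrgl1 (ENSRNOG00000020202), an asparaginase, was at 42.5, 35.02 and 35.9 CPM and 61.4, 66.2 and 71.8 CPM (log2 fold change 0.82 with a standard error of 0.13, adjusted p = 0.000769). Rn28s was at 22309, 15850 and 24260 CPM and 33330, 32038 and 34152 CPM (log2 fold change 0.67 with a standard error of 0.10, adjusted p = 0.000489), and 7 of the 66 genes, Rn28s among them, are those whose counts correlated with Rn28s at 0.999 or more over 39 libraries. In all of these genes the CR>AL+LA pools lay above every CR>AL pool.

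The named genes lower than in CR>AL, taken by smallest p, belong to several functions. The splicing factor Srrm2 (ENSRNOG00000004478) was at 650.1, 582 and 586 CPM in CR>AL and 428, 425 and 436 CPM in CR>AL+LA (log2 fold change −0.49 with a standard error of 0.09, adjusted p = 0.00254). Mll2 (ENSRNOG00000015107), a histone H3 methyltransferase, was at 103, 88.3 and 89.8 CPM and 67.2, 52.8 and 70.3 CPM (log2 fold change −0.57 with a standard error of 0.12, adjusted p = 0.0229). Nat8l (ENSRNOG00000049351), which makes N-acetylaspartate, was at 79.5, 71.99 and 102 CPM and 58.1, 46.9 and 50.2 CPM (log2 fold change −0.71 with a standard error of 0.13, adjusted p = 0.00536). Agap3 (ENSRNOG00000012764), a GTPase regulator, was at 70.2, 77.4 and 64.4 CPM and 42.2, 52.8 and 45.5 CPM (log2 fold change −0.59 with a standard error of 0.13, adjusted p = 0.0263), and Dab2ip (ENSRNOG00000019237), a Ras inhibitor, at 90.3, 79.4 and 98.5 CPM and 61.4, 60.7 and 64.4 CPM (log2 fold change −0.52 with a standard error of 0.12, adjusted p = 0.0316). Of the lists above, Complex I and ATP synthase each had 1 member higher than in CR>AL, Ndufa13 with 2.79, 6.09 and 5.39 CPM and 13.2, 12.1 and 14.1 CPM (log2 fold change 1.42 with a standard error of 0.29, adjusted p = 0.0154) and Atp5c1 with 46.3, 47.2 and 49.3 CPM and 76.3, 69.2 and 87.5 CPM (log2 fold change 0.70 with a standard error of 0.12, adjusted p = 0.00254). The list medians went the other way, at −0.11 for Complex I, −0.15 for ATP synthase and −0.16 for complexes III and IV. Of the 2 thalamus and hypothalamus markers Prkcd was lower, with 23.3, 47.2 and 43.9 CPM and 24.96, 17.4 and 21.6 CPM (log2 fold change −0.86 with a standard error of 0.20, adjusted p = 0.0458), and its part in the other differences was not tested. The ribosomal protein, MHC class II, glutathione and immediate early lists had none. The same held for the lists of histone acetyltransferases, histone deacetylases, and histone and DNA methylation, in which Mll2 is not counted. With all 13 groups of the series in 1 fit the count against CR>AL was 2 in place of 66, and leaving out single pools gave 41 to 75.

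**Figure D5:**
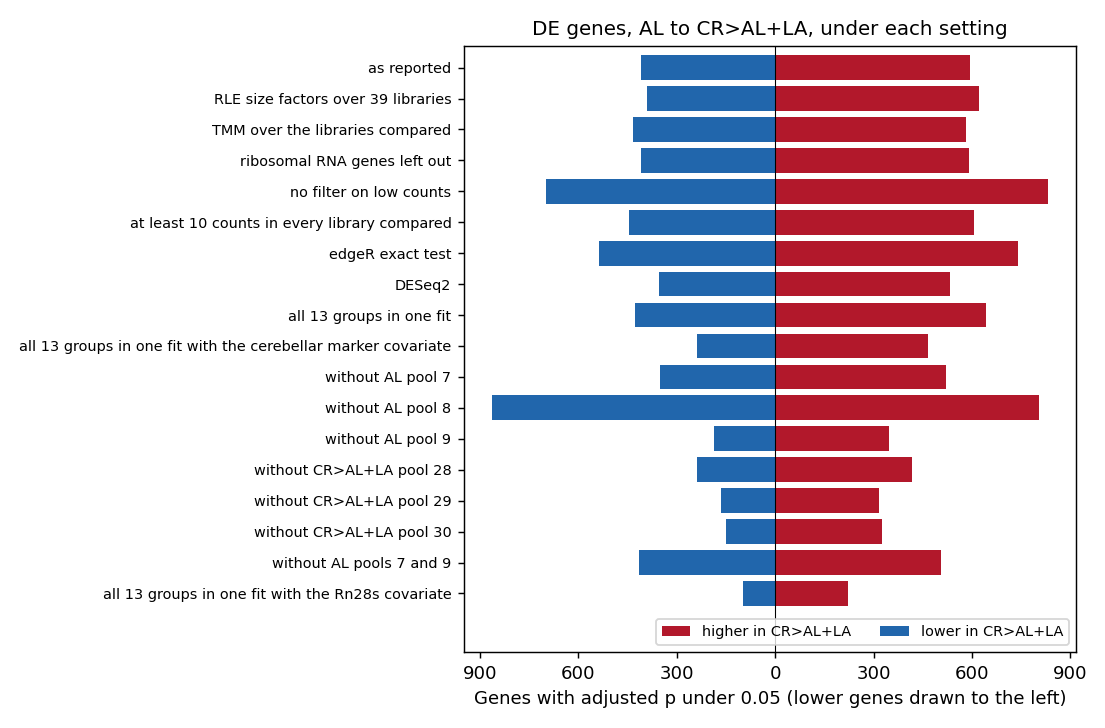
DE genes in the comparison of AL with CR>AL+LA under each setting, with genes higher in CR>AL+LA drawn to the right (red) and lower genes to the left (blue). The count lies between 320 with the Rn28s covariate and 1667 without AL pool 8, against 1003 as reported.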

How the data were processed

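Ribosomal RNA was depleted from pools of 2 rats by a hybridisation kit and SOLiD forward reads were made. The authors aligned the colour-space reads with Bowtie, keeping unique matches to the rat genome Rnor_5.0 with its Ensembl release 71 genes (rn5 in the submitters' processing notes), and HTSeq gave the number of reads for each gene. The deposited values are raw counts, and the 5 closing lines that name no gene were dropped. Between 79.9% and 82.2% of the aligned reads of the 6 libraries fell on no gene. Genes with at least 1 CPM in at least 3 of 39 libraries were kept (17230 of 26123), scaled by TMM over 39 libraries and tested with edgeR 4.0.16 (R 4.3.3), quasi-likelihood, on the libraries compared, with Benjamini-Hochberg adjustment over all genes tested (threshold 0.05). A standard error is the log2 fold change divided by the square root of F. DESeq2 1.42.0 was an alternative.

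In simulated data with 200 of 17230 genes changed 2-fold, 127 were recovered, with 12 false calls. P-values measure the spread between pools of different rats. Gene lists hold 858 entries, of which 270 had a named identifier, and no listed symbol of a mitochondrially encoded or oligodendrocyte precursor gene matched (ATP8 is named under another symbol). Genes named are the 12 per direction with the smallest p among named DE genes with non-overlapping pools, at most 4 DE members per list (2 where none passed), 22 memory genes named by the study, 3 markers per cell type and 5 genes per direction in the other comparisons, plus Rn28s. RT1-Bb, Fgfr3, Tyrobp, Itgam, Stx1a, Bsn, Vamp1, Stip1, Ndufa13, Atp5c1 and the lipoic acid and metallothionein genes beyond the rule were added after their values were seen. Members and lists were chosen with earlier results of these data known. Promoters are from RefSeq (GRCr8), another build than that of the counts. Coding lengths were not used here. Some genes that the rule names are not reported here. For unaligned reads an exact two-sided permutation test was used.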

Additional observations from a re-analysis of the deposited data

Results flagged for a closer look

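The share of reads that did not align lies outside the gene counts and was higher in CR>AL+LA than in AL. It was 39.6% ± 1.61 (SD, n = 3 pools) in CR>AL+LA and 31.2% ± 3.25 (SD, n = 3 pools) in AL, a difference of 8.36 percentage points, with all 3 CR>AL+LA pools above all 3 AL pools. The two-sided exact permutation test gave p = 0.1, the smallest p that 3 pools against 3 allow. In the other diets at 28 months the share ranged from 40.05% to 40.7% in CR>AL, from 38.5% to 41.3% in AL+LA and from 38.1% to 40.7% in CR. Its part in the differences between genes was not tested.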

How the results depend on the processing

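The count of DE genes between AL and CR>AL+LA was 1013 with RLE size factors, 1016 with TMM over the 6 libraries, 1002 without the named ribosomal RNA gene, 1053 with at least 10 counts in every library, 1276 by edgeR's exact test, 888 by DESeq2, 1072 with all 13 groups in 1 fit and 920 without AL pools 7 and 9. It was 1532 with no filter on low counts, and 320 with the Rn28s covariate, chosen after seeing the data. With the cerebellar covariate it was 703, with 466 genes higher and 237 lower, against 593 and 410 as reported. Of the 1003 genes reported, 541 were called with the cerebellar covariate and 251 with the Rn28s covariate. Leaving out 1 pool gave a count of 477 to 1667. Against CR>AL the count of 66 moved to 155 with no filter, 108 by the exact test, and 2 with all 13 groups in 1 fit, with or without the cerebellar covariate, and it ranged from 41 to 75 with 1 pool left out. Against AL+LA it moved from 0 to 20 with no filter and ranged from 0 to 1 with 1 pool left out. Against CR it moved from 1 to 55 with no filter, 5 by the exact test and 0 with all 13 groups in 1 fit, with or without the covariate, and it ranged from 0 to 34 with 1 pool left out. The cause of these moves was not tested.

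Log2 fold changes against AL turned in sign as follows. Without AL pools 7 and 9 they were 0.038 for Gria4, 0.10 for Pik3r3, 4.97 for Gabra6, 2.35 for Fat2, 1.15 for Neurod1, −0.020 for Fezf2, 0.20 for ATP8, 0.055 for Atp5c1 and −0.066 for Srrm2. With the cerebellar covariate they were 0.85 for Gabra6, 0.51 for Fat2, 0.31 for Neurod1, −0.16 for Fezf2 and −0.093 for Srrm2, and with the Rn28s covariate −0.35 for Ccdc47, −0.23 for Sdf4 and −0.82 for Ndufa13. With 1 pool left out, C1qc ranged from −0.22 to 0.18, ATP8 from −0.40 to 0.26, Penk from −0.073 to 0.61 and Srrm2 from −0.10 to 0.088.

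No paired analysis was possible because the labels number the pools from 1 to 39 without repeats, so groups share no replicate number. Genes of low counts are limited by depth, since 1 CPM stands for 2.75 to 4.54 reads in the 6 libraries.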
